A study of Saccharomyces cerevisiae with 24 samples.

Results

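The subject of this report is the set of 10 nuclear genes that encode the fatty acid beta-oxidation enzymes of budding yeast. They were selected by systematic name for their known roles, and they are 10 of the 6562 genes in the expression table. They comprise FAA2, PXA1 and PXA2 for activation and entry, POX1, FOX2 and POT1 for the core spiral, ECI1, DCI1 and SPS19 for unsaturated fatty acids, and the thioesterase gene TES1. Cells were Saccharomyces cerevisiae of strain CEN.PK. They went through the yeast metabolic cycle in minimal medium, in which a dense culture repeats phases of high and low oxygen uptake. RNA was sequenced at 0, 20, 60, 110, 140, 180, 200, 210, 220, 230, 240 and 260 min, with 1 library at each time and no replicate. The labels give no genotype beyond the strain and no name for the phase at each time. The 12 matched MNase-seq samples were not analysed here.

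In yeast, beta-oxidation takes place in the peroxisome and not in the mitochondrion. Fatty acids are activated to acyl-CoA, enter the peroxisome, and are shortened by an oxidase, a bifunctional hydratase and dehydrogenase, and a thiolase, which releases acetyl-CoA. Glucose represses these genes, and oleate induces them through the factors Oaf1 and Pip2, with Adr1 acting when glucose is short.

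Depth, estimated from the spacing of low values, was about 4370000 to 5960000 reads per library. Values are given as RPKM, reads per kilobase scaled to library size, obtained as described under processing. The 0 min library was most like the 240 min library across all tested genes, with a Pearson r of 0.92 on the log2(RPKM + 1) scale. The 260 min library was most like that of 20 min, with r of 0.96. In bulk RNA, fewer cells in a given state and less RNA per cell cannot be told apart, and each RPKM value is relative to the whole library.

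All 10 genes shared 1 course. Their RNA was low at 0 min, abundant from 20 to 210 min, lowest at 230 or 240 min, and abundant again at 260 min. Summed over the 10 genes, the level in time order was 524, 3780, 3383, 3006, 2525, 2315, 2455, 1856, 333, 103, 218 and 4286 RPKM. The sum at 260 min was therefore the highest of the 12, and the next highest was that of 20 min. For 9 genes the lowest value came at 230 min, and for POT1 at 240 min. The highest was 260 min for 6 genes, 20 min for POT1, DCI1 and TES1, and 60 min for SPS19.

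**Figure D1:**
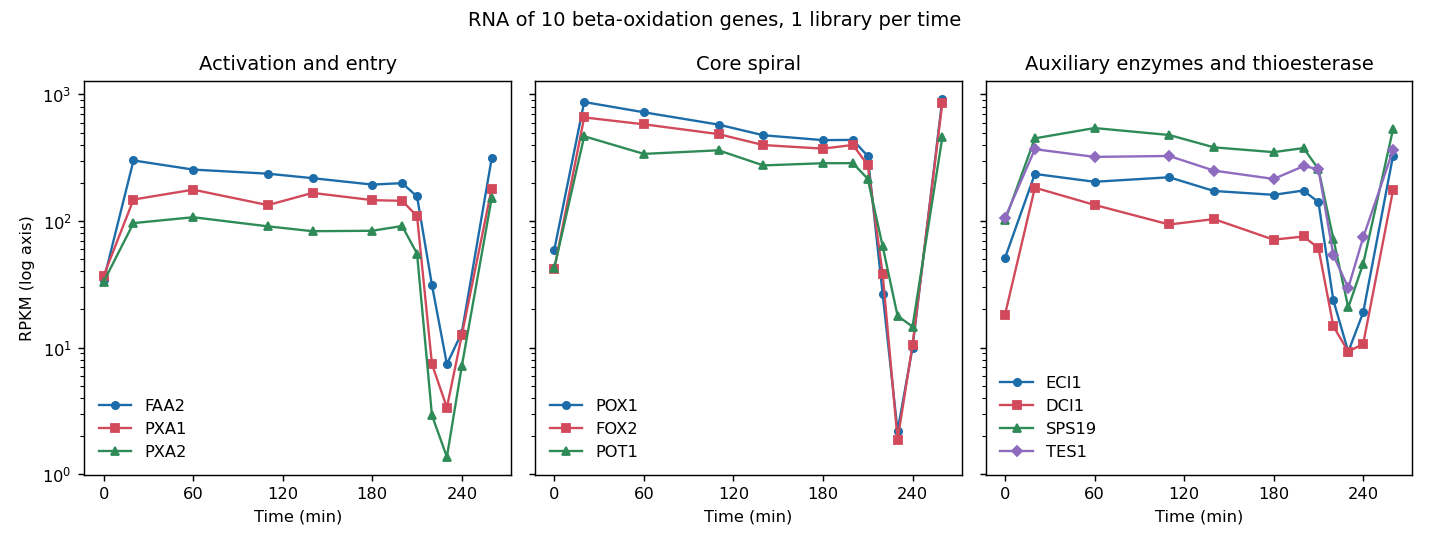
RPKM on a log axis against time in minutes for the 10 genes, in panels by role; each point is 1 library and lines join the points of a gene. All genes sit high from 20 to 210 min, reach 1.37 to 29.6 RPKM at 230 min, and are high again at 260 min, while 0 min lies low.

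Whether the levels vary over the course was tested with a smooth curve in time with 4 degrees of freedom (limma), adjusted by Benjamini-Hochberg over 6493 genes. None of the 10 genes passed in this fit, against 20.7% of all tested genes, and the limma adjusted p ran from 0.0793 for PXA2 to 0.221 for POT1. At an unadjusted p of 0.05, 2 of the 10 passed in the same fit, against 40.8% of all tested genes. The residual SD about this curve was 1.05 for TES1 and 2.33 for FOX2 on the log2 scale. A curve with 5 degrees of freedom gave the opposite count, with all 10 genes past the threshold against 39.9% of all tested genes. The limma adjusted p values were then 0.000775 for PXA2 to 0.00652 for TES1. On an axis of time point number, with 4 degrees of freedom, 7 passed, against 40.9% of all tested genes. With 4 degrees of freedom and the 0 min library left out, 10 passed, but the share of all tested genes was then 51%. Without 20 min 9 passed, against 43.2% of all tested genes. Dropping 60, 110, 140 or 260 min gave 5, 2, 1 and 6 members, against 32.3%, 27.3%, 25.4% and 12.8% of all tested genes. With 5 degrees of freedom, 3 passed without 230 min, near the 20.7% of all tested genes, and 6 without 240 min, against 28.2%. When any other library was dropped 9 or 10 passed, against 26.3% to 51.7% of all tested genes. The levels below are therefore described library by library, and differences between 2 libraries have no replicate check.

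Of the 3 core genes, POX1 and FOX2 had the widest excursions of the 10, and POT1 a narrower one. POX1 (YGL205W, chromosome VII, 108158 to 110404) encodes acyl-CoA oxidase, which performs the first step and makes hydrogen peroxide. From 0 to 260 min it had 59.5, 871, 723, 578, 476, 436, 437, 326, 26.5, 2.19, 9.99 and 922 RPKM. The level at 260 min was 421-fold that at 230 min, where about 25 reads lay behind the value. The fitted curve spanned 7.63 ± 1.04 (SE) on the log2 scale with 5 degrees of freedom and 6.02 ± 1.80 with 4.

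FOX2 (YKR009C, chromosome XI, 454352 to 457054) encodes the bifunctional enzyme that hydrates and then dehydrogenates the chain. Its levels in time order were 41.9, 658, 581, 486, 398, 373, 399, 277, 38.0, 1.87, 10.4 and 864 RPKM. Between 260 and 230 min the ratio was 462, the widest among the 10 genes. The courses of POX1 and FOX2 were the most alike of the 45 pairs of genes, with r of 0.996 over the 12 libraries, all points sharing the same libraries.

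POT1 (YIL160C, chromosome IX, 40191 to 41444) encodes the 3-ketoacyl-CoA thiolase that closes the cycle of reactions. It had 42.8, 467, 339, 362, 275, 286, 286, 215, 63.2, 17.8, 14.6 and 460.0 RPKM from 0 to 260 min. POT1 kept more of its RNA at 230 min than its 2 partners in the spiral, since its level at 20 min was 26.3-fold that at 230 min, against 398-fold for POX1 and 352-fold for FOX2. It was also the only one of the 10 genes whose level at 240 min was below that at 230 min. The pair of POT1 and PXA2 had the lowest r of the 45 pairs, 0.89, and the median pair had 0.97.

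The entry genes lay lower. FAA2 (YER015W, chromosome V, 184541 to 186775) encodes a peroxisomal acyl-CoA synthetase that activates medium-chain fatty acids. In time order it had 34.0, 301, 255, 236, 218, 194, 199, 156, 31.1, 7.38, 13.1 and 312 RPKM. Its first 160 of 2235 bases overlap BUD25 (YER014C-A, a gene on the opposite strand by its name), and the library kit does not mark strand. The highest BUD25 level was 52.7 RPKM at 260 min and the lowest 9.59 RPKM at 230 min, a narrower range, and its part in the FAA2 values was not tested.

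PXA1 and PXA2 encode the half-transporters that together form the peroxisomal importer of long-chain acyl-CoA. PXA1 (YPL147W, chromosome XVI, 273255 to 275867) had 36.9, 148, 177, 134, 167, 146, 144, 109, 7.39, 3.35, 12.5 and 180.5 RPKM in time order. PXA2 (YKL188C, chromosome XI, 86225 to 88786) had 33.1, 96.2, 107, 90.7, 83.0, 83.7, 91.3, 55.1, 2.91, 1.37, 7.13 and 152 RPKM. PXA2 was the lower of the 2 in all 12 libraries, and its value at 230 min rests on about 18 reads. Both half-transporters held their level between 20 and 200 min, with ratios of 0.977 and 0.949 for 200 min over 20 min. For 220 min over 210 min their steps, at -3.71 for PXA1 and -3.84 for PXA2, were the lowest of the 10 genes.

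Of the 3 genes for unsaturated fatty acids, ECI1 and DCI1 had nearly the same lowest level, and SPS19 a higher one. ECI1 (YLR284C, chromosome XII, 706198 to 707040), which encodes the enoyl-CoA isomerase that shifts double bonds, had 9.26 RPKM at 230 min against 235 RPKM at 20 min, and 328 RPKM at 260 min. DCI1 (YOR180C, chromosome XV, 674352 to 675167) is a paralog of ECI1 of less certain function. In time order DCI1 had 18.2, 183, 134, 93.8, 104, 71.2, 75.4, 61.2, 14.8, 9.27, 10.7 and 175 RPKM. The level of DCI1 at 200 min was 0.411 of that at 20 min, and it was the only one of the 10 genes at least 2-fold lower at 200 than at 20 min, against 6.04% of all tested genes. POX1 stood next, at 0.502. Whether DCI1 and ECI1 share reads was not tested.

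SPS19 (YNL202W, chromosome XIV, 259578 to 260456) encodes the 2,4-dienoyl-CoA reductase, which uses NADPH and is also known as a sporulation gene. It had 101, 450, 543, 478, 382, 350.0, 377, 257, 72.2, 20.7, 45.9 and 531 RPKM from 0 to 260 min. TES1 (YJR019C, chromosome X, 467232 to 468281) encodes the peroxisomal acyl-CoA thioesterase, which splits acyl-CoA back to the free acid. Its levels were 106, 369, 321, 326, 250.1, 215, 271, 257, 53.6, 29.6, 74.1 and 362 RPKM in time order. TES1 had the narrowest excursion of the 10 genes, with a highest-to-lowest ratio of 12.5, and the highest level of them all at 0, 230 and 240 min.

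By mean level over the 12 libraries the order was POX1 (406 RPKM), FOX2 (344), SPS19 (301), POT1 (236), TES1 (220), FAA2 (163), ECI1 (145), PXA1 (105), DCI1 (79.2) and PXA2 (66.9). With no replicate, the closest guide to scatter is the pair of libraries at 200 and 180 min, between which the 10 genes differed by at most 1.26-fold. By that measure 5 neighbouring pairs in the order were not separated: POX1 and FOX2, FOX2 and SPS19, POT1 and TES1, FAA2 and ECI1, and DCI1 and PXA2.

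The make-up of the pool differed between its high and low points. POX1, FOX2 and POT1 together held 52.4% of the summed RPKM at 260 min and 52.8% at 20 min. They held 21.2% at 230 min and 16.1% at 240 min. POX1 alone held 21.5% at 260 min and 2.13% at 230 min. TES1 held 8.45% at 260 min and 28.8% at 230 min, and SPS19 held 12.4% and 20.1% at those times. The member with the most RNA was thus POX1 at 20 and 260 min, and TES1 at 230 and 240 min. SPS19 ranked near the top at both ends, with 531 RPKM at 260 min and 20.7 RPKM at 230 min.

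**Figure D2:**
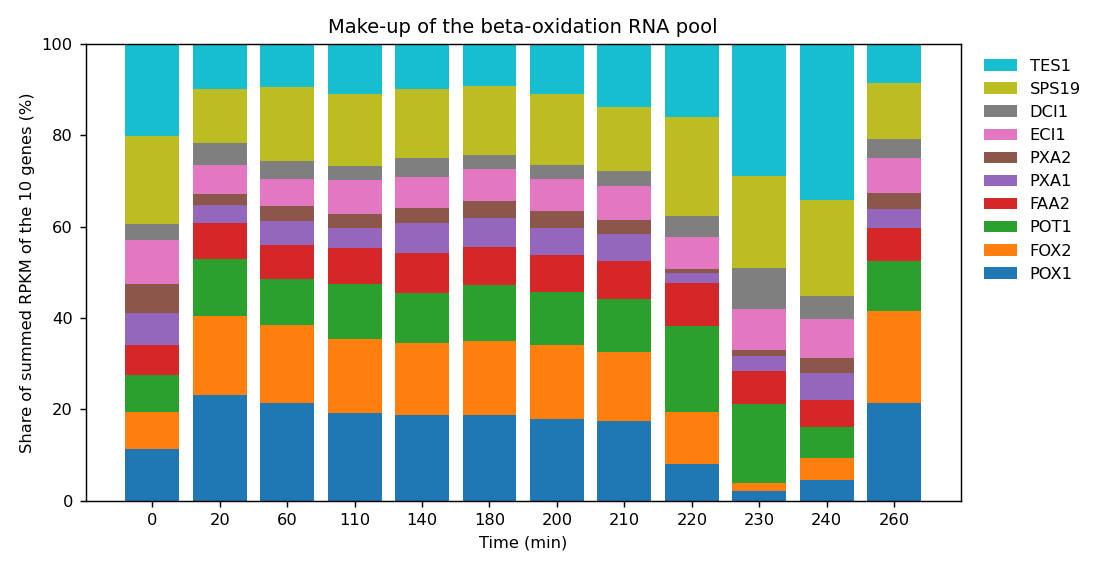
Share of each gene in the summed RPKM of the 10 genes, in percent, as stacked bars for each of the 12 libraries in time order. The core genes at the bottom of the bars shrink to 21.2% at 230 min and 16.1% at 240 min, while TES1 at the top widens to 28.8% and 34.1%.

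The first step of the course was from 0 to 20 min. All 10 genes were at least 2-fold higher at 20 than at 0 min, against 5.17% of all tested genes. The members' median difference on the log2(RPKM + 1) scale was 2.65, while the median of all genes was -0.41. FOX2 at 15.7-fold, POX1 at 14.6-fold, POT1 at 10.9-fold and DCI1 at 10.1-fold had the widest steps, and PXA2 at 2.91-fold the narrowest. The 4 widest steps thus included all 3 genes of the core spiral.

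From 20 to 210 min neighbouring libraries gave like levels. At none of the 6 steps between neighbouring times in that span was a member 2-fold higher or lower, while 21.4% of all tested genes were so at one step or more. Over the whole span the differences were wider, and at 210 min POX1, FOX2, POT1 and DCI1 were at least 2-fold below their 20 min level, against 7.39% of all tested genes. All 10 genes were lower at 210 than at 200 min, by 0.08 for TES1 to 0.72 for PXA2 on the log2 scale.

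At the median of the members the widest downward step was from 210 to 220 min, at -2.41 on the log2 scale. For FOX2, and by little for POT1, the step to 230 min was wider. All 10 were at least 2-fold lower at 220 min, against 14.6% of all tested genes, and 7 were at least 4-fold lower, against 3.25%. The step ran from -3.84 for PXA2 to -1.75 for POT1. On the log2(RPKM + 1) scale DCI1 lay just short of the 4-fold line, at -1.98, although its RPKM was 4.15-fold lower. At the next step, 6 members were at least 2-fold lower at 230 than at 220 min on the log2(RPKM + 1) scale, against 6.53% of all tested genes. PXA1 and PXA2 fell short on that scale, at -0.95 and -0.72, although their RPKM was 2.20-fold and 2.13-fold lower. The share of the descent that fell in each of these steps differed between genes. PXA2 was 19.0-fold lower at 220 than at 210 min and a further 2.13-fold lower at 230 min. FOX2 was 7.30-fold lower in the first step and a further 20.3-fold lower in the second. POT1 and SPS19 were lower by about the same factor in each, by 3.41-fold and 3.56-fold for POT1 and by 3.57-fold and 3.48-fold for SPS19.

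Over the 20 min from 210 to 230 min, the ratio of POX1 corresponds to a halving every 2.77 min if the decrease was exponential. The same figure was 2.77 min for FOX2, 3.75 min for PXA2, 5.55 min for POT1 and 7.34 min for DCI1. From 210 to 220 min alone the figures for POX1 and POT1 were close to these, at 2.76 and 5.65 min. For FOX2, PXA2 and DCI1 they were 3.49, 2.36 and 4.87 min, so 1 rate does not describe both of their steps. These are apparent times of the share of RNA in the library, with no error, since each end is 1 library. They are not RNA half-lives.

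At 240 min 6 of the 10 were at least 2-fold higher than at 230 min, against 9.83% of all tested genes. FOX2 was 5.57-fold, PXA2 5.22-fold, POX1 4.57-fold, PXA1 3.74-fold, TES1 2.50-fold and SPS19 2.22-fold higher. ECI1, DCI1 and FAA2 were between 1.15-fold and 2.04-fold higher, and POT1 stood at 0.823 of its 230 min level. On the log2(RPKM + 1) scale ECI1 lay just short of the 2-fold line, at 0.96.

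By 260 min all 10 genes were at least 4-fold higher than at 240 min, against 3.83% of all tested genes. At least 2-fold the count was again 10, against 11.9%. POX1 was 92.2-fold and FOX2 83.0-fold higher, while TES1 was 4.89-fold higher. The median of the members was 4.14 on the log2 scale, against -0.29 over all genes.

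**Figure D3:**
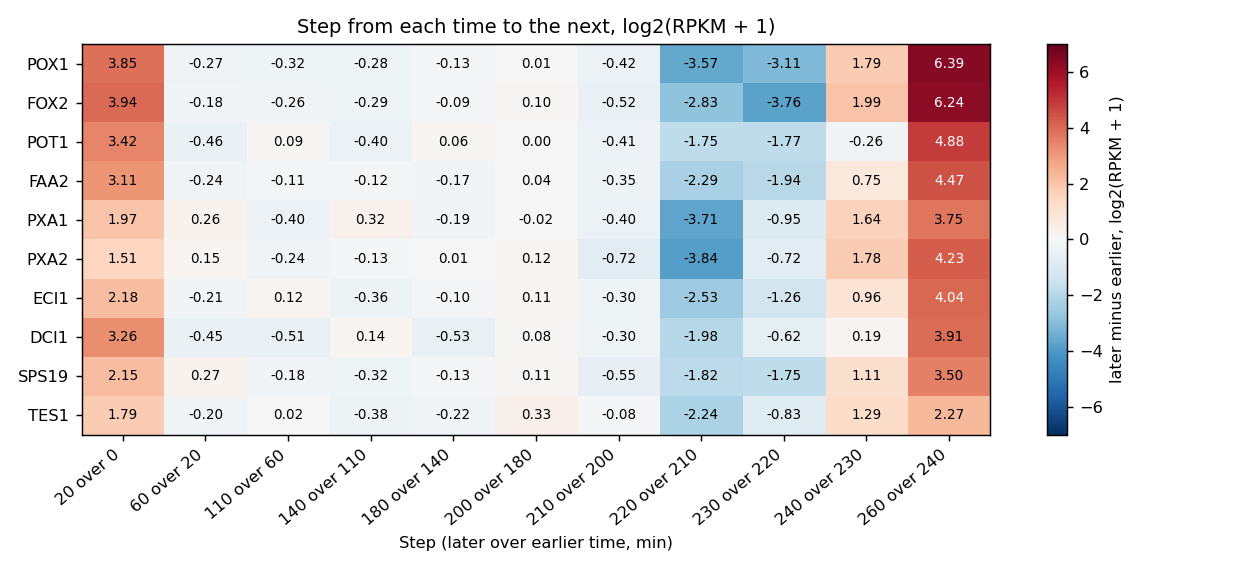
Later minus earlier log2(RPKM + 1) for each gene (rows) and each step between neighbouring times (columns), with values printed and coloured. The large entries stand in the first column and in the last 4, and the 6 columns between hold values from -0.72 to 0.33.

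Set against each other directly, all 10 genes were at least 2-fold lower at 220 than at 20 min, against 21.2% of all tested genes. The members' differences ran from -4.99 for POX1 to -2.62 for SPS19, with a median of -3.41, against a median of 0.17 over all genes. Dividing by median-ratio size factors moved the median of all genes to -0.01 and that of the members to -3.59, and all 10 stayed past 2-fold.

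**Figure D4:**
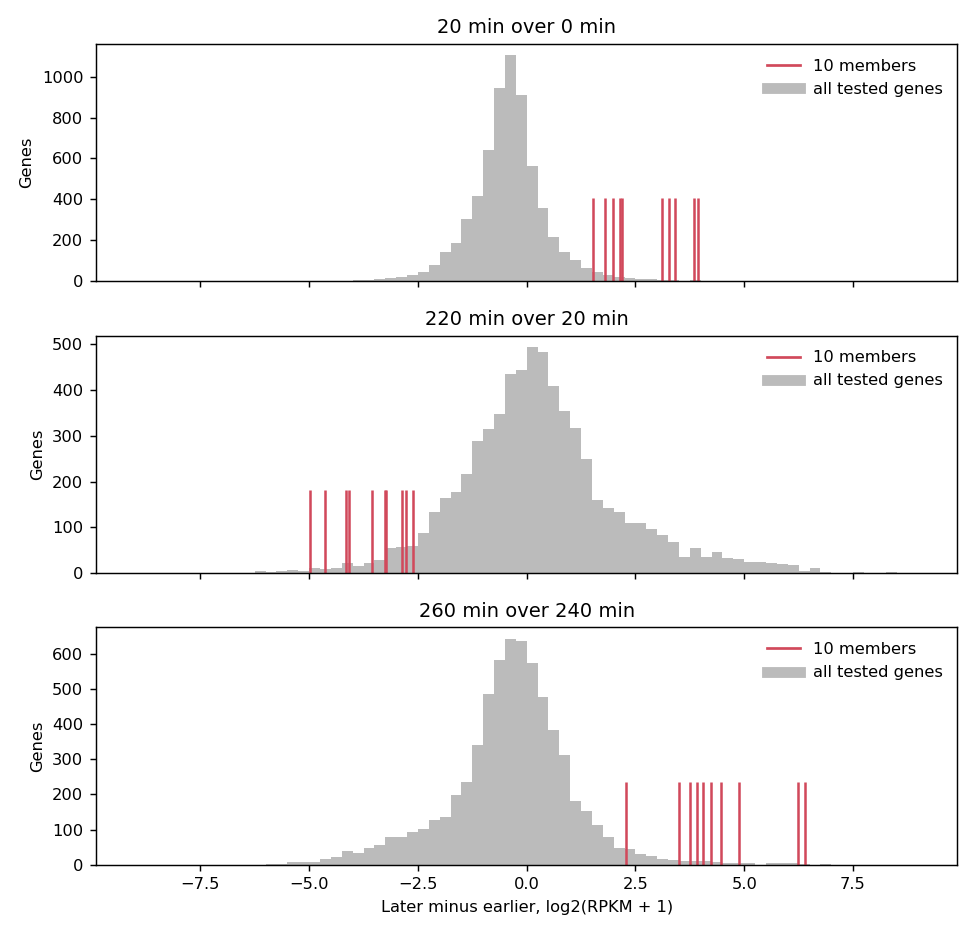
Histograms of the later minus earlier log2(RPKM + 1) over the 6493 tested genes in 3 comparisons, with red lines at the 10 beta-oxidation genes. The lines lie at 1.51 to 3.94 for 20 over 0 min, -4.99 to -2.62 for 220 over 20 min, and 2.27 to 6.39 for 260 over 240 min.

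The closing of the cycle was compared at 3 times. At 260 min the 10 genes stood close to their 20 min level, with differences of -0.06 for DCI1 to 0.65 for PXA2 on the log2 scale, and none was 2-fold higher, against 4.88% of all tested genes. Relative to 0 min, all 10 were at least 2-fold higher at 260 min, against 5.30% of all tested genes. Each of the 10 genes had a 0 min level between its levels at 240 and 260 min. So did 717 of the 774 tested genes that were at least 2-fold higher at 260 than at 240 min, which is 92.6%. On the log scale the 0 min level lay 31.3% of the way from the 240 min to the 260 min level at the median of the members, with a range of 18.3% to 48.9%. The median over the 774 genes was 50.6%.

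Genes that work with the pathway were counted in 7 lists chosen from textbook knowledge, with earlier results of these data known. The planned 4-degree fit called no list member other than 3 lipase genes. The counts below are for 5 degrees of freedom unless stated. That setting was taken for the lists after the 4-degree result was seen, so its calls are description only. Among the 6493 tested genes that fit called 1201 with lower and 1388 with higher RNA at 220 than at 20 min.

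Of 10 peroxisomal partner genes, 5 passed with less RNA at 220 than at 20 min and 1 passed with more. CTA1 (YDR256C), the peroxisomal catalase that removes the peroxide made by acyl-CoA oxidase, had 36.3 RPKM at 220 min against 1103 RPKM at 20 min (range 6.02 ± 0.80, limma adjusted p = 0.00165). CAT2 (YML042W), the carnitine acetyltransferase that lets acetyl units leave the peroxisome, had 28.4 RPKM at 220 min against 811 RPKM at 20 min (range 6.69 ± 0.91, limma adjusted p = 0.00128). With 4 degrees of freedom their limma adjusted p values were 0.108 and 0.0836, and without 230 min CAT2 had 0.0559 with 5 degrees of freedom. IDP3, MDH3 and LPX1 were the other 3. With 4 degrees of freedom the limma adjusted p was 0.129 for IDP3 and 0.1315 for LPX1. MDH3, the peroxisomal malate dehydrogenase, had 209.7 RPKM at 220 min against 637 RPKM at 20 min (limma adjusted p = 0.00331, and 0.0921 with 4 degrees of freedom). CIT2 and MLS1, for peroxisomal citrate synthase and malate synthase, were highest at 0 min, at 3365 and 1439 RPKM, where the 10 beta-oxidation genes were low. MDH3, LPX1, CIT2 and MLS1 were named after their values were seen. Neither CIT2 nor MLS1 passed (limma adjusted p of 0.528 and 0.325).

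Transcription regulators of the pathway had narrower courses. Of 7 genes, 1 passed, with less RNA at 220 than at 20 min, against 1201 of the 6493 tested genes. PIP2 (YOR363C), the oleate-induced activator, had 12.4 RPKM at 220 min against 38.4 RPKM at 20 min (range 1.89 ± 0.38, limma adjusted p = 0.00937). With 4 degrees of freedom its limma adjusted p was 0.179. SNF1, the kinase that relieves glucose repression, had 33.6 RPKM at 220 min against 90.9 RPKM at 20 min and did not pass (limma adjusted p = 0.229). PIP2 lost its call with 5 degrees of freedom without 220, 230, 240 or 260 min (limma adjusted p of 0.0576 to 0.166). The median of this list was -1.21 for 220 over 20 min, against 0.17 over all genes.

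Activation and uptake genes other than FAA2 had no common course. Of 4 genes, 2 passed, both lower at 220 than at 20 min. FAA1 (YOR317W), the main long-chain acyl-CoA synthetase, had 58.0 RPKM at 220 min against 275 RPKM at 20 min and was highest at 60 min, at 476 RPKM (range 3.40 ± 0.36, limma adjusted p = 0.00064, and 0.0654 with 4 degrees of freedom). FAA3 had 44.1 RPKM at 220 min against 18.6 RPKM at 20 min and did not pass (limma adjusted p = 0.211).

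Among 6 lipase genes, 2 passed with more RNA at 220 than at 20 min and 1 passed with less. The same counts held with 4 degrees of freedom. YEH1 (YLL012W), a steryl ester hydrolase, rose to 94.8 RPKM at 220 min against 6.90 RPKM at 20 min (range 4.24 ± 0.51, limma adjusted p = 0.00141). YEH2 (YLR020C), its homolog, rose to 53.3 RPKM at 220 min against 12.8 RPKM at 20 min (range 2.23 ± 0.35, limma adjusted p = 0.00257). Steryl ester hydrolases release free fatty acids from stored lipid. YEH1 and YEH2 were lowest at 260 min, the library in which POX1 and FOX2 were highest. For 220 over 20 min the rest of the list ran the other way. TGL1, which passed, had 14.2 RPKM at 220 min against 38.5 RPKM at 20 min (limma adjusted p = 0.0316, and 0.0339 with 4 degrees of freedom). TGL3, TGL4 and TGL5 did not pass, with differences of -0.61 to -0.32. TGL5 was nevertheless highest at 240 min, at 32.1 RPKM against 20.8 RPKM at 20 min. The list median was -0.37. The TGL genes were named after their values were seen.

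Of 16 genes for import into the peroxisome, 7 passed with less RNA at 220 than at 20 min and none with more. PEX18 (YHR160C), a co-receptor for proteins such as the thiolase, had 4.29 RPKM at 220 min against 39.3 RPKM at 20 min (range 3.09 ± 0.72, limma adjusted p = 0.0284). PEX21, its paralog, ran the other way, with 204 RPKM at 220 min against 47.6 RPKM at 20 min, and did not pass (limma adjusted p = 0.0749). The median of the list was -0.40. Of 5 genes for the peroxisomal membrane and its proliferation, 3 passed with less RNA at 220 than at 20 min and 1 with more. PEX11 (YOL147C), which drives peroxisome proliferation, had 141 RPKM at 220 min against 554 RPKM at 20 min (limma adjusted p = 0.011), and PEX3 (YDR329C), a membrane biogenesis factor, had 32.9 RPKM at 220 min against 127 RPKM at 20 min (limma adjusted p = 0.036). In the fit with 4 degrees of freedom neither passed, at limma adjusted p of 0.196 and 0.106, and PEX18 had 0.101. With 5 degrees of freedom and a library left out, PEX11 lost its call without 220, 230, 240 or 260 min (limma adjusted p of 0.0598 to 0.168). PEX18 lost it unless the library dropped was 210, 220 or 240 min (0.0571 to 0.122), and PEX3 unless it was 220 min (0.0502 to 0.11).

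In the fatty acid synthesis list, 0 of 4 genes passed at either stiffness in limma, and the median was -0.60. OLE1, the fatty acid desaturase, had 1018 RPKM at 220 min against 2145 RPKM at 20 min (limma adjusted p = 0.78). FAS1, a subunit of fatty acid synthase, had 320.3 RPKM at 220 min against 532 RPKM at 20 min (limma adjusted p = 0.345).

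**Figure D5:**
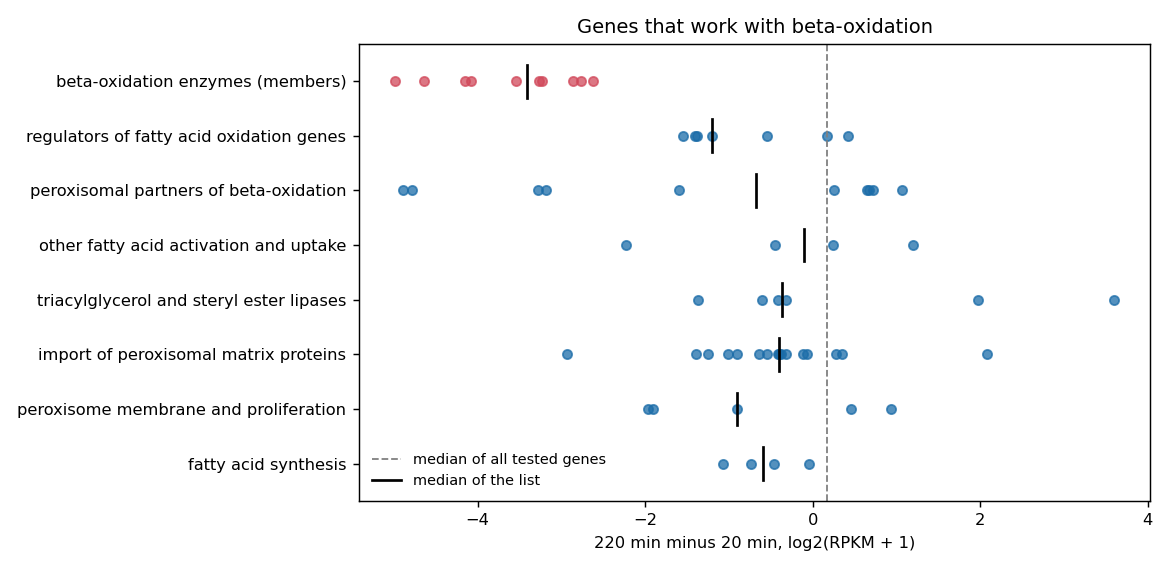
Later minus earlier log2(RPKM + 1), 220 over 20 min, for the 10 beta-oxidation genes (red) and for the genes of 7 related lists (blue), 1 point per gene, with black bars at list medians and a dashed line at the median of all tested genes, 0.17. The 10 genes lie at -4.99 to -2.62, where few points of the other lists fall.

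The genes most like the mean course of the 10 were ranked by Pearson r over the 12 libraries, for genes averaging 10 RPKM or more. These values describe likeness only, because every gene shares the same libraries. IDP3 (YNL009W), the peroxisomal isocitrate dehydrogenase that supplies NADPH, the cofactor of the SPS19 enzyme, came first with r of 0.997. It had 30.4, 199, 201, 179, 168, 151, 156, 110.02, 19.6, 4.47, 14.3 and 312 RPKM in time order. The uncharacterised ID YNL203C followed with 0.991. It has no entry in the annotation used, so whether it shares reads with SPS19, next to it in systematic name, was not tested. Then came SPG4 (0.990), HBT1 (0.990), the metallothionein gene CRS5 (0.989), PEX11 (0.989) and SPG1 (0.988). SPG1 and SPG4 are known from stationary phase. DPL1, for the dihydrosphingosine phosphate lyase that degrades long-chain base phosphates, had 0.988. FAT3, for a protein of fatty acid uptake, had 0.987, and the aminopeptidase gene LAP3 had 0.986. When each of the 10 genes was set against the mean of the other 9, ECI1 ranked 1 among 5970 genes, POX1, FAA2 and SPS19 each ranked 2, and FOX2 ranked 5. POT1 ranked 89 and PXA2 ranked 93.

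Neighbours on the chromosome mostly did not share the course. Among the 20 neighbouring protein-coding genes of the 10 members, r with the member ran from -0.86 for BIM1, beside FAA2, to 0.98 for FAT3, which lies 497 bases from PXA2. FAT3 (YKL187C) had 7.22 RPKM at 220 min against 541 RPKM at 20 min, a difference of -6.04 on the log2 scale. BUD25, which overlaps FAA2, had r of 0.94, and REC107, which lies 273 bases from TES1, had 0.93.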

How the data were processed

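Per the labels' protocols, the NEBNext Ultra RNA kit was used on RNA from hot phenol. The submitters' processing notes name Bowtie2 and build R64, and the read counter was not given in the sources used here. What the authors deposited is a table of signal per gene and library, and a table of each gene as a fraction of its highest library, which matched the first to within 2.22e-16. Columns were matched to samples by time point number. The sum of signal times kilobases of gene was 41500000 to 44800000 in each library, too much for RPKM, and 324 of 2026 low values fell, after rounding, on 1 to 4 multiples of 50 bases. The signal was therefore divided by a read length of 50 and called RPKM, from the values alone. Depth is estimated likewise, so no counting interval is given. Of 6562 genes, 5891 matched the R64 annotation.

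Genes averaging 1 RPKM or more, 6493 in all and with all 10 members among them, were fitted on log2(RPKM + 1) with natural splines in minutes (limma 3.58.1, R 4.3.3, trended), leaving 7 residual degrees of freedom. The range is the span of the fitted curve over the sampled times, with its SE. The log scale understates changes of low genes. Benjamini-Hochberg adjustment ran over all tested genes, with a threshold of 0.05. P-values measure scatter about a curve, not spread between cultures. Named genes are the 10 members, the 2 genes of each list with the widest difference between 220 and 20 min and a mean of at least 10 RPKM, and the 10 genes most like the mean course. Members and lists were chosen with earlier results of these data known. No sequences were used.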

Additional observations from a re-analysis of the deposited data

How the results depend on the processing

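The count of members past the threshold was 0 with 4 degrees of freedom, against 20.7% of all tested genes. It became 10 with 5 degrees of freedom, against 39.9% of all tested genes, and 7 with time point number, against 40.9%. With the deposited fractions it was 10, against 39%. It stayed 0 with 3 degrees of freedom, 2 harmonics, both other pseudocounts, both filters, median-ratio scaling, quantile normalization and the undivided signal. In those settings the share of all tested genes ran from 2.23% with 3 degrees of freedom to 27.7% with quantile normalization. Leaving out single libraries gave 0 to 10. It was 10 without the 0 min library, 9 if that of 20 min was dropped, 6 for 260 min, 5 for 60 min, 2 for 110 min, 1 for 140 min and 0 otherwise. In that order the shares of all tested genes were 51%, 43.2%, 12.8%, 32.3%, 27.3% and 25.4%. Where the count was 0, the share ran from 4.27% without 240 min to 20.4% without 180 min. Among settings chosen after seeing the data, time point number with 5 degrees of freedom gave 10, against 45.8% of all tested genes. With 5 degrees of freedom and a library left out the count was 3 for 230 min dropped, 6 for 240 min, 9 for either 220 or 260 min, and 10 otherwise. The shares of all tested genes were 20.7% without 230 min, 28.2% without 240 min and 26.3% to 51.7% for the other drops. Removing a library also moves the knots of the curve, so the cause was not tested. All tested genes called numbered 1343 with 4 degrees of freedom, 145 with 3, 2589 with 5 and 2657 with time point number. The counts of 10 members at least 2-fold lower at 220 than at 20 min, and at least 2-fold higher at 260 than at 240 min, were 10 under every pseudocount, scaling, unit and fold tried. For 260 over 240 min the median of all genes was 0.02 with median-ratio scaling, against -0.29 without it. No paired analysis was possible because each time has 1 library. At 230 min 18 to 160 reads lay behind each member, which limits the ratios against that time.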
